A study of Hansenula anomala with 15 samples.

Results

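The genes described here encode the enzymes that make and break down trehalose and glycogen in Wickerhamomyces anomalus, a yeast whose organism label reads Hansenula anomala. They were chosen by annotation alone: a gene belonged to the set when its KEGG entry in the deposited table began with one of 9 ortholog numbers. Of the 6571 genes in the table, 8 did so. Of the 9 numbers, 7 found a gene; no entry began with K01087, a trehalose-6-phosphate phosphatase, or K00750, glycogenin. Whole fermentation broth of an apricot fermentation was sampled at 0, 16, 32, 48 and 64 h, with 3 libraries of polyadenylated RNA per time point, and no strain, treatment or other condition is named in the labels. The labels call the replicates biological without saying whether they came from separate vessels, so p values measure the spread between these samples.

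Trehalose is a disaccharide and glycogen a branched polymer of glucose. Both are made from UDP-glucose, and yeasts are known to store them and to draw on them when sugar or other nutrients run short; trehalose is also known to protect proteins and membranes under stress. In Saccharomyces cerevisiae, Tps1 joins UDP-glucose and glucose-6-phosphate to trehalose-6-phosphate, Tps2 removes the phosphate, and neutral and acid trehalases split the product into glucose. Glycogen synthase lengthens the glucan chains, the branching enzyme Glc3 adds branch points, the phosphorylase Gph1 releases glucose-1-phosphate from chain ends, and the debranching enzyme Gdb1 clears the branches. Many of these enzymes are also controlled by phosphorylation, which transcript levels do not show.

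The 8 genes were TPS1 (WICANDRAFT_31819, 1428 bp), TPS2 (WICANDRAFT_89759, 2315 bp), the acid trehalase gene ATH1 (WICANDRAFT_49615, 3077 bp), a neutral trehalase gene (WICANDRAFT_64361, 2292 bp), a glycogen synthase gene (WICANDRAFT_29895, 2055 bp), GLC3 (WICANDRAFT_106540, 2655 bp), GPH1 (WICANDRAFT_35719, 2604 bp) and GDB1 (WICANDRAFT_83655, 4500 bp). Symbols and gene lengths are those of the RefSeq assembly Wican1 and rest on homology; WICANDRAFT_64361 and WICANDRAFT_29895 carry no symbol and are named from their KOG descriptions. All 8 passed the filter on low counts, and their counts in single libraries ran from 61 (GLC3, 32 h replicate 2) to 122627 (GPH1, 16 h replicate 3). Libraries held 17.6 to 40.1 M counts. Levels are given as CPM, the counts of a gene per 1 M of its library after scaling by TMM (trimmed mean of M values). They are relative to the other genes of a library, so a fall of a gene cannot be told apart from a rise of other transcripts. They do not measure the number of cells or the RNA per cell.

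Among 4453 genes averaging 10 CPM or more, 16 h replicate 2 and 64 h replicate 3 did not resemble the rest of their groups. The highest rank correlation of 16 h replicate 2 with its own group was 0.742, and that of 64 h replicate 3 was 0.837, against 0.951 with 32 h replicate 2. In 0 h replicate 3, the log2 ratio of each gene to its group mates had a rank correlation of -0.493 with gene length across 6327 genes, and the median ratio of the 8 genes was -0.56. TMM and library size scaling also differ by a shift of all genes. From TMM to library size scaling, the median log2 fold change of all genes tested went from 0.09 to -0.60 for 16 h against 0 h. It went from -0.06 to 1.10 for 32 h against 16 h and from 0.004 to 0.45 for 48 h against 32 h. For 64 h against 48 h it went from -0.05 to -0.73. Over longer spans it went from -0.07 to 0.86 for 64 h against 16 h and from -0.02 to 0.24 for 64 h against 0 h. The cause of either difference was not tested; where these libraries or the scaling end a call, the value without them or under the other scaling is given.

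The 8 genes together took a larger share of the reads in the first 2 time points than later. Their summed share lay between 0.164% and 0.489% in the 6 libraries of 0 and 16 h, and between 0.0710% and 0.158% in the 9 libraries of 32, 48 and 64 h, without overlap. Within that sum, GPH1 supplied 52.3% to 54.7% of the counts at 0 h, 62.4% to 74.5% at 16 h, 20.9% to 25.6% at 32 h, 11.8% to 18.6% at 48 h and 18.5% to 40.5% at 64 h. The summed shares are of all counts in a library and so follow library size scaling. The GPH1 percentages within the sum do not depend on how libraries are scaled. The lack of overlap rests on GPH1: without it, the summed shares of the early and the later libraries overlapped. With TMM all 8 genes passed the F test over the 5 time points, where 68.5% of all genes tested passed. Adjusted p ran from 7.69e-06 for GPH1 to 0.0374 for GDB1. With library size scaling not all of the 8 passed, where 76% of all genes tested did, and the closing section gives the count.

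**Figure D1:**
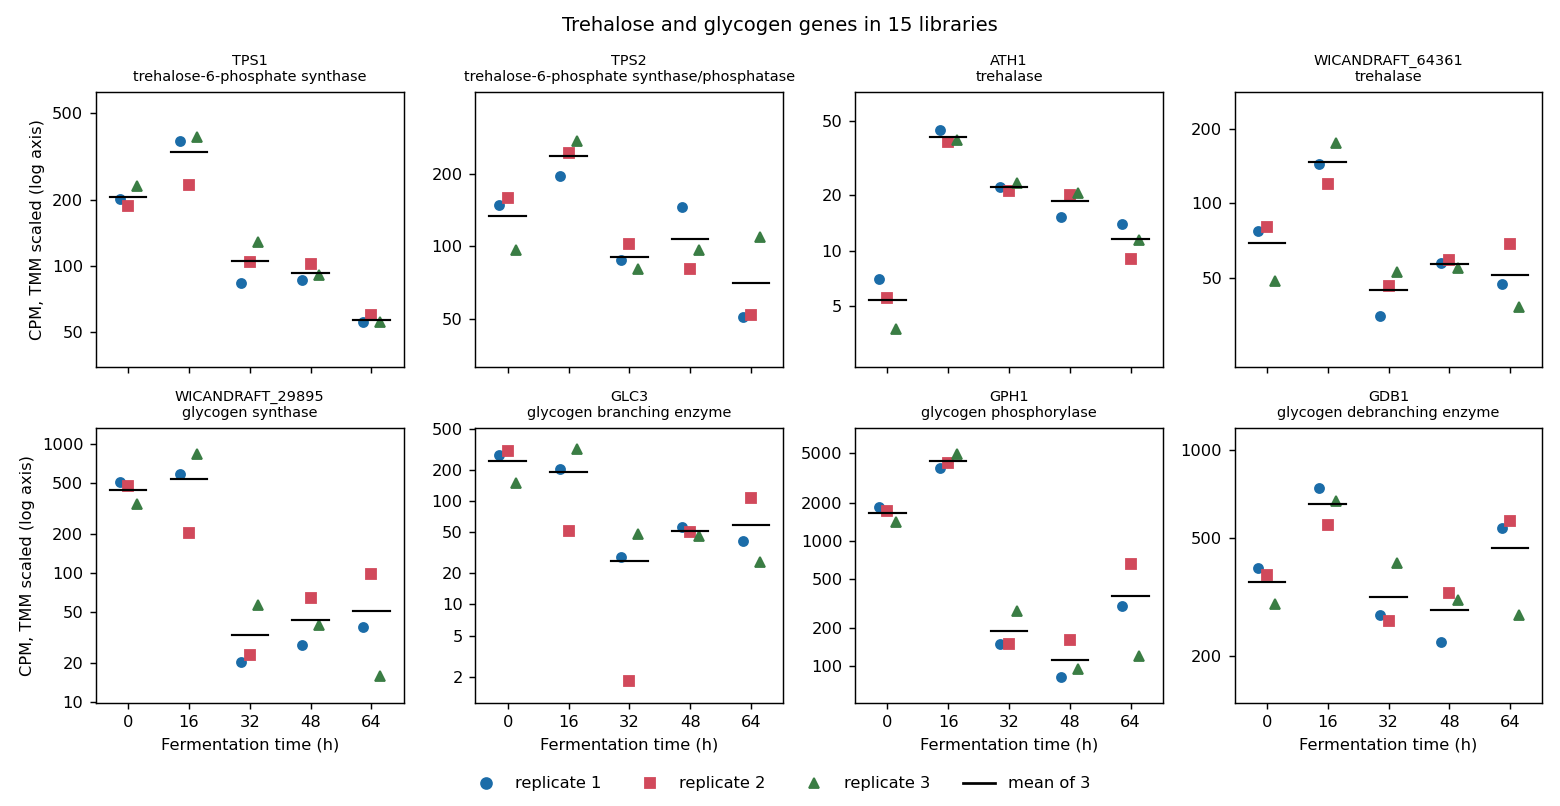
Level of each of the 8 genes in every library, in TMM-scaled CPM on a log axis, against fermentation time in h; symbols mark the replicate number and bars the mean of 3 libraries. GPH1 lies between 3791 and 4989 CPM at 16 h and between 81.7 and 160 CPM at 48 h, while GDB1 spans only 222 to 740 CPM over all 15 libraries.

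Per length, GPH1 was the most abundant of the 8 transcripts at 0 and 16 h, and ATH1 was the least abundant at every time point. GPH1 averaged 643 ± 91.3 CPM per kb at 0 h and 1665 ± 233 CPM per kb at 16 h (SD, n = 3 each). The glycogen synthase gene came next with 213 ± 42.6 CPM per kb at 0 h and 261 ± 152 CPM per kb at 16 h. At 32 h TPS1, GPH1 and GDB1 stood within their spread of each other, at 74.0 ± 15.9, 73.4 ± 28.2 and 70.4 ± 18.4 CPM per kb. The mean of TPS1 was the highest at 48 h with 65.2 ± 5.87 CPM per kb, beside 63.7 ± 12.5 CPM per kb for GDB1. At 64 h the mean of GPH1 was again the highest with 138 ± 105 CPM per kb, with that of GDB1 (103 ± 36.3 CPM per kb) within its spread. ATH1 stood between 1.77 ± 0.522 CPM per kb at 0 h and 13.3 ± 1.10 CPM per kb at 16 h.

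Trehalose synthesis was represented by TPS1 and TPS2, whose TMM-scaled levels were highest at 16 h and lower from 32 h on. TPS1, the synthase gene, had 203, 188 and 233 CPM at 0 h, 374, 235 and 391 CPM at 16 h, 83.6, 105 and 129 CPM at 32 h, 86.0, 102 and 90.9 CPM at 48 h, and 55.4, 59.5 and 55.6 CPM at 64 h. Every library of 0 and 16 h thus lay above every later one in TMM-scaled CPM. There 32 h and 48 h overlapped, and the 3 libraries of 64 h lay below all others. With library size scaling, TPS1 averaged 181 CPM at 0 h and at 16 h, 134 CPM at 32 h and 158 CPM at 48 h. Libraries of these early and later time points then overlapped. TPS1 fell 3.16-fold at 32 h against 16 h (log2 fold change -1.66, SE 0.30, adjusted p = 0.000947), a call that ended with library size scaling (-0.43, adjusted p = 0.346). It was 3.66-fold lower at 64 h than at 0 h (adjusted p = 0.000146). At 16 h against 0 h its log2 fold change of 0.68 did not pass (adjusted p = 0.0731). Without 16 h replicate 2 it was 0.88 and passed (adjusted p = 0.0198). With library size scaling it was 0.0035 (adjusted p = 0.995), and with the replicate number as a block it did not pass (adjusted p = 0.107).

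TPS2, which carries the phosphatase step, had 148, 158 and 96.3 CPM at 0 h, 195, 244 and 272 CPM at 16 h, 87.6, 102 and 80.8 CPM at 32 h, 146, 80.4 and 96.2 CPM at 48 h, and 50.8, 51.8 and 109 CPM at 64 h. Its 16 h libraries were the highest in TMM-scaled CPM, and the other time points overlapped with a neighbour in the order of means. With library size scaling its mean was highest at 48 h (181 CPM, against 135 CPM at 16 h). At 64 h, replicate 3 stood above both other libraries. TPS2 fell 2.63-fold at 32 h against 16 h (log2 fold change -1.39, SE 0.37, adjusted p = 0.0106; -0.26 with library size scaling, adjusted p = 0.683). It also fell by 0.93 on the log2 scale at 64 h against 0 h (adjusted p = 0.0429). That call ended with library size scaling (-0.64, adjusted p = 0.327) and when any one of 10 libraries was left out (replicates 1 and 2 of 0 h, all of 32 h and 48 h, replicates 1 and 2 of 64 h), with log2 fold changes of -0.74 to -0.93.

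Both trehalase genes rose at 16 h against 0 h, ATH1 the most of the 8. ATH1, whose product in S. cerevisiae acts on trehalose at the vacuole or cell surface, had 6.99, 5.52 and 3.79 CPM at 0 h, 44.6, 38.3 and 39.5 CPM at 16 h, 22.0, 21.0 and 23.2 CPM at 32 h, 15.1, 19.99 and 20.4 CPM at 48 h, and 13.96, 9.03 and 11.4 CPM at 64 h. In TMM-scaled CPM no time point overlapped with the next in the order of means, from 16 h through 32 h, 48 h and 64 h to 0 h. With library size scaling the means were 22.3 CPM at 16 h, 27.5 CPM at 32 h and 31.4 CPM at 48 h. The 32 h libraries then overlapped with those of 16 h and of 48 h. ATH1 rose 7.49-fold at 16 h against 0 h (log2 fold change 2.90, SE 0.29, adjusted p = 7.79e-06; 2.16 with library size scaling, adjusted p = 0.00123). It was still 2.11-fold higher at 64 h than at 0 h (adjusted p = 0.00456).

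The neutral trehalase gene WICANDRAFT_64361, whose S. cerevisiae counterpart splits trehalose in the cytosol, had 77.8, 80.6 and 48.6 CPM at 0 h, 145, 120 and 175 CPM at 16 h, 35.3, 46.5 and 52.8 CPM at 32 h, 57.4, 59.5 and 54.9 CPM at 48 h, and 47.3, 68.6 and 38.3 CPM at 64 h. The 16 h libraries were above all others in TMM-scaled CPM, and the remaining time points overlapped with their neighbours in the order of means. With library size scaling the mean of this gene was highest at 48 h (97.3 CPM, against 81.3 CPM at 16 h). It rose 2.12-fold at 16 h against 0 h (log2 fold change 1.09, SE 0.31, adjusted p = 0.0114), a call that ended with library size scaling (0.35, adjusted p = 0.534). At 32 h against 16 h it fell 3.27-fold (adjusted p = 0.00115; -0.51 on the log2 scale with library size scaling, adjusted p = 0.318), and at 64 h against 0 h its log2 fold change of -0.43 did not pass (adjusted p = 0.254).

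For glycogen synthesis, the synthase gene WICANDRAFT_29895 had 505, 468 and 338 CPM at 0 h, 581, 205 and 826 CPM at 16 h, 20.2, 23.2 and 55.9 CPM at 32 h, 27.5, 63.5 and 39.3 CPM at 48 h, and 37.8, 98.3 and 15.8 CPM at 64 h. The values of 0 and 16 h overlapped with each other, as did those of 32, 48 and 64 h, and a gap from 98.3 to 205 CPM separated both sets. The gene fell 16.2-fold at 32 h against 16 h (log2 fold change -4.02, SE 0.71, adjusted p = 0.000913), with log2 fold changes of -2.76 with library size scaling (adjusted p = 0.00319) and -4.63 without 32 h replicate 3. By 64 h it was 8.62-fold lower than at 0 h (log2 fold change -3.11, adjusted p = 0.00166; -4.03 without 64 h replicate 2).

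GLC3, the branching enzyme gene, had the largest SE of the 8 at 32 h against 16 h. It had 277, 304 and 151 CPM at 0 h, 206, 51.2 and 318 CPM at 16 h, 28.4, 1.80 and 47.8 CPM at 32 h, 56.3, 50.2 and 46.0 CPM at 48 h, and 41.3, 107 and 25.9 CPM at 64 h. Replicate 2 was the lowest library at 16 h and at 32 h, and every time point overlapped with its neighbour in the order of means. GLC3 fell 7.38-fold at 32 h against 16 h (log2 fold change -2.88, SE 0.88, adjusted p = 0.0228). This call ended without 16 h replicate 3 (-2.31, adjusted p = 0.0828), without 32 h replicate 1 (-2.93, adjusted p = 0.0697) and with library size scaling (-1.68, adjusted p = 0.0984); with 32 h replicate 3 removed it was -3.67. Between 64 h and 0 h a log2 fold change of -2.07 did not pass (adjusted p = 0.0541). It passed without 16 h replicate 2, 32 h replicate 2, 32 h replicate 3 or 64 h replicate 2, with -2.86 in the last of these fits, and with DESeq2 (-2.03, adjusted p = 0.0219).

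On the breakdown side of glycogen, GPH1 had 1879, 1733 and 1414 CPM at 0 h, 3791, 4227 and 4989 CPM at 16 h, 149, 149 and 276 CPM at 32 h, 81.7, 160 and 94.3 CPM at 48 h, and 299, 658 and 121 CPM at 64 h. In TMM-scaled CPM all 16 h libraries lay above all 0 h libraries, and these above every later library, while 32, 48 and 64 h overlapped. With library size scaling the 0 h and 16 h libraries overlapped, with 1477 CPM in 16 h replicate 1 and 1746 CPM in 0 h replicate 1. Both time points still lay above every later library. GPH1 fell 22.7-fold at 32 h against 16 h (log2 fold change -4.50, SE 0.60, adjusted p = 0.000139; -3.32 with library size scaling, adjusted p = 0.000316). It was 4.66-fold lower at 64 h than at 0 h (log2 fold change -2.22, adjusted p = 0.00361; -2.995 without 64 h replicate 2). A log2 fold change of 1.37 at 16 h against 0 h did not pass (adjusted p = 0.0517). It passed without 64 h replicate 2 (adjusted p = 0.0246) or 64 h replicate 3 (adjusted p = 0.0174). It did not pass with library size scaling (0.69, adjusted p = 0.306) or with the replicate number as a block (adjusted p = 0.0701).

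GDB1, which acts with the phosphorylase on the same polymer, had 396, 375 and 300 CPM at 0 h, 740, 556 and 671 CPM at 16 h, 276, 263 and 412 CPM at 32 h, 222, 327 and 310 CPM at 48 h, and 543, 574 and 276 CPM at 64 h. The 16 h and 64 h values overlapped, as did those of each further pair of neighbours in the order of means. With library size scaling the mean of GDB1 was highest at 48 h (488 CPM, against 356 CPM at 16 h). GDB1 fell 2.07-fold at 32 h against 16 h (log2 fold change -1.05, SE 0.36, adjusted p = 0.0382). The call ended without any one of 8 libraries, namely 0 h replicate 1, replicates 1 and 3 of 16 h, replicates 1 and 2 of 32 h and all 3 of 48 h (log2 fold changes of -0.93 to -1.05), and with library size scaling the value was 0.17. For 64 h against 0 h its log2 fold change was 0.38 (adjusted p = 0.387).

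**Figure D2:**
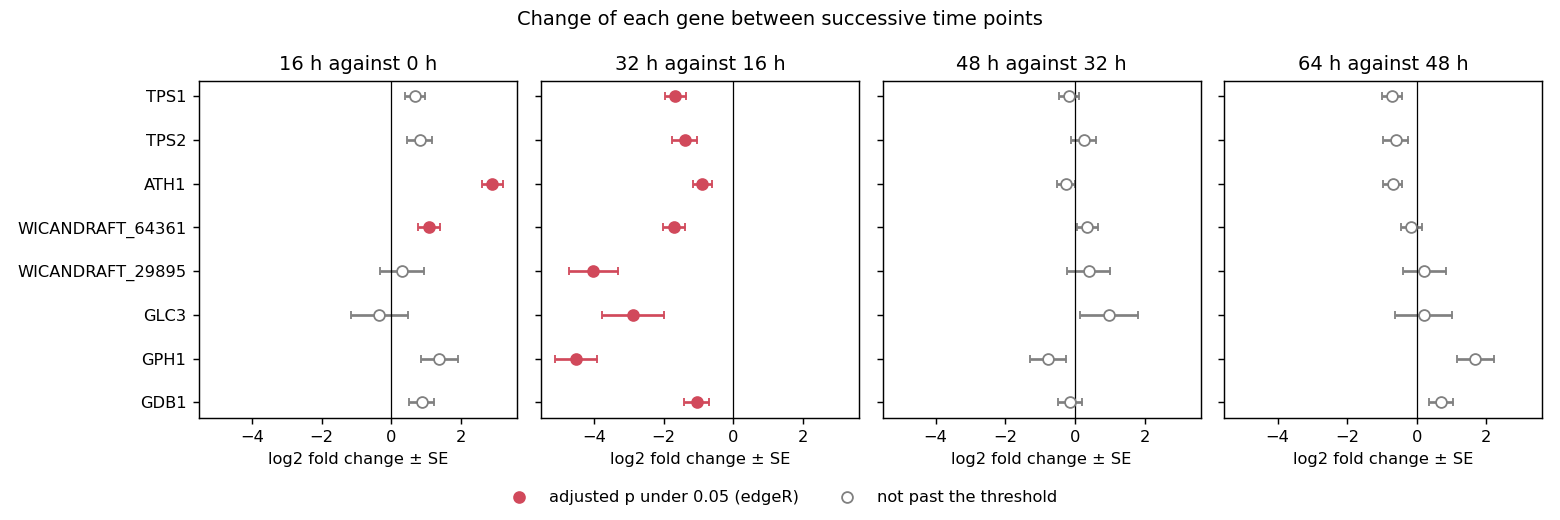
Log2 fold change with its SE (bars) of each gene between successive time points, from the edgeR fit of all 15 libraries; filled red points have an adjusted p under 0.05. ATH1 and WICANDRAFT_64361 pass at 16 h against 0 h, all 8 genes pass at 32 h against 16 h, and none passes in either later step; with library size scaling ATH1 and GDB1 have the opposite sign at 32 h against 16 h.

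At 16 h against 0 h, 2 of the 8 genes rose and 0 fell, where 22.6% of all genes tested rose and 17.8% fell. The median log2 fold change of the 8 was 0.85, beside 0.09 for all genes tested, and with library size scaling these medians were 0.13 and -0.60. Under that scaling ATH1 alone of the 8 rose, where 9.8% of all genes tested rose and 27.7% fell. Those that rose were the trehalase genes, and GLC3 alone had a negative log2 fold change (-0.35, SE 0.82, adjusted p = 0.764). Without 16 h replicate 2 and 64 h replicate 3, 5 of the 8 rose (22.5% of all genes tested), TPS1, GPH1 and GDB1 among them. Leaving out 64 h replicate 3 alone also gave 5, but with TPS2 (log2 fold change 0.82, adjusted p = 0.0413) in place of TPS1. The share of all genes tested is not given for that fit, so its count has nothing to be set against.

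At 32 h against 16 h, all 8 genes fell and 0 rose, where 17.7% of all genes tested fell and 14.1% rose. Log2 fold changes ran from -4.50 for GPH1 to -0.89 for ATH1 (SE 0.27, adjusted p = 0.0224), with a median of -1.68, beside -0.06 for all genes tested. With library size scaling, 2 of the 8 fell, GPH1 and the glycogen synthase gene, where 4.5% of all genes tested fell and 44.4% rose; the medians were then -0.47 for the 8 and 1.10 for all genes, and ATH1 (0.30) and GDB1 (0.17) had the opposite sign. Without 32 h replicate 1, 5 of the 8 fell, a fit for which the share of all genes tested is not given. The call of ATH1 ended without 16 h replicate 1 or 32 h replicates 1 or 2 (log2 fold changes of -0.82 to -0.86). All 8 fell without 16 h replicate 2 and 64 h replicate 3, where 24.1% of all genes tested fell and 22.8% rose.

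**Figure D3:**
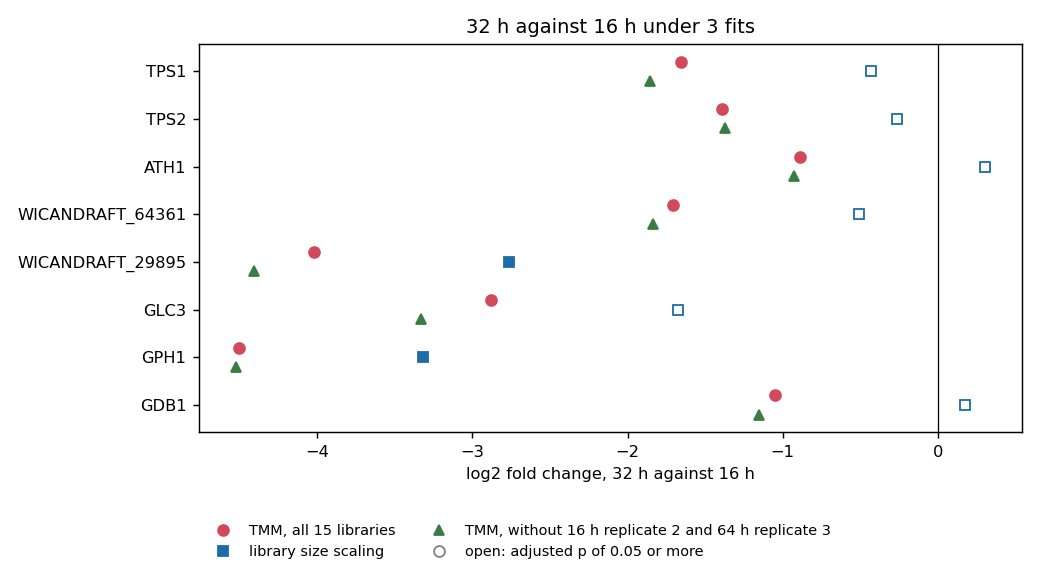
Log2 fold change of each gene at 32 h against 16 h under TMM with all 15 libraries (circles), library size scaling (squares) and TMM without 16 h replicate 2 and 64 h replicate 3 (triangles); open symbols have an adjusted p of 0.05 or more. GPH1 and WICANDRAFT_29895 stay at -2.76 or below in all 3 fits, while with library size scaling ATH1 and GDB1 lie to the right of 0.

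From 32 h to 48 h, edgeR called 0 of the 8 genes risen and 0 fallen, as it did for all genes tested (0% each way); 0 of the 8 had an unadjusted p under 0.05 (347 of all genes tested), and DESeq2 called 0 of the 8. The log2 fold changes ran from -0.77 (GPH1, SE 0.53) to 0.97 (GLC3, SE 0.83). For 64 h against 48 h edgeR again called 0 of the 8 in either direction (0% of all genes tested rose and 0.0158% fell), with 3 at an unadjusted p under 0.05, while DESeq2 called GPH1 risen (9.31% of all genes tested). The GPH1 value was 1.68 (SE 0.54, adjusted p = 0.0818). In 64 h replicates 1 and 2 it stood above every 48 h library, and in 64 h replicate 3 it lay within their range.

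The calls of this last step changed with 64 h replicate 3. Without 64 h replicate 3, GPH1 rose at 64 h against 48 h (log2 fold change 2.09, adjusted p = 0.00876) and TPS2 fell (-1.07, adjusted p = 0.0483). Without this library and 16 h replicate 2, GPH1 and GDB1 rose (14.6% of all genes tested) and TPS2 fell (15.7%), with log2 fold changes of 2.09, 0.96 and -1.07. In all 15 libraries with library size scaling, GPH1 (0.77, adjusted p = 0.296), GDB1 (-0.09, adjusted p = 0.877) and TPS2 (-1.18, adjusted p = 0.132) did not pass. With the replicate number as a block, GPH1 (1.63, adjusted p = 0.134), GDB1 (0.68, adjusted p = 0.333) and TPS2 (-0.62, adjusted p = 0.376) did not pass either. Among the 8, TPS2 was highest in replicate 3 of the 64 h libraries and GPH1, GDB1, GLC3 and both WICANDRAFT_29895 and WICANDRAFT_64361 were lowest there.

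Over longer spans GPH1, the glycogen synthase gene, TPS1 and TPS2 fell both at 64 h against 16 h and at 64 h against 0 h, though TPS2 in neither with library size scaling. At 64 h against 16 h, 6 of the 8 fell and 0 rose (20.8% and 18% of all genes tested), with a median log2 fold change of -1.79 beside -0.07 for all genes. GLC3 (-1.72, adjusted p = 0.119) and GDB1 (-0.50, adjusted p = 0.283) did not pass. GPH1 was 12.1-fold lower (-3.59 on the log2 scale; -4.37 when 64 h replicate 2 was left out). The glycogen synthase gene was 10.6-fold lower (-3.41; -4.33 when that library was left out). With library size scaling 3 of the 8 fell (6.1% of all genes tested, with 36.4% risen), and TPS2 (-0.75), ATH1 (-0.87) and the neutral trehalase gene (-0.66) were not called, with medians of -0.92 for the 8 and 0.86 for all genes. GLC3 passed without 16 h replicate 2 (-2.17) or 32 h replicate 2 (-1.72). In the comparison of 64 h with 0 h, 4 of the 8 fell (25.8% of all genes tested) and ATH1 rose (26.6%), with a median of -1.40 beside -0.02 for all genes. With library size scaling 3 of the 8 fell (17.2% of all genes tested) and ATH1 rose (27.2%), with medians of -1.12 and 0.24.

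Ratios of synthesis to breakdown transcripts within each library do not depend on how libraries are scaled. The glycogen synthase to phosphorylase ratio, in counts per kb on the log2 scale, was -1.55, -1.55 and -1.72 at 0 h, -2.36, -4.03 and -2.25 at 16 h, -2.54, -2.33 and -1.96 at 32 h, -1.23, -0.99 and -0.92 at 48 h, and -2.65, -2.40 and -2.59 at 64 h. Phosphorylase transcripts exceeded synthase transcripts in all 15 libraries, least so at 48 h, whose 3 libraries lay above all 12 others. The mean difference was 1.23 for 48 h against 32 h and -1.50 for 64 h against 48 h, both without overlap. In an exact two-sided permutation test of 3 against 3 libraries each had p = 0.1, the smallest value this design allows, and an adjusted p of 0.15 over the 12 ratio tests.

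The log2 ratio of TPS1 to the summed trehalase genes had means of 2.22 ± 0.56, 1.57 ± 0.21, 1.46 ± 0.10, 1.07 ± 0.07 and 0.63 ± 0.29 at 0, 16, 32, 48 and 64 h (SD, n = 3 each). The libraries of 16 and 32 h overlapped, and no other successive pair did (exact permutation p = 0.1 for each of the 3 other steps, adjusted p = 0.15). The 0 h mean includes 2.86 in replicate 3, against 1.97 and 1.83 in replicates 1 and 2; TPS1 is the shortest of the 8 genes, and the relation of that library to gene length is given above. Without that replicate, the difference of 16 h against 0 h was -0.33 in place of -0.65. The branching to debranching ratio was 0.16 ± 0.35 at 0 h and -1.36 ± 1.21, -3.77 ± 2.31, -1.72 ± 0.43 and -2.42 ± 0.68 at 16, 32, 48 and 64 h, with -6.43 in 32 h replicate 2, the library with 61 GLC3 counts.

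**Figure D4:**
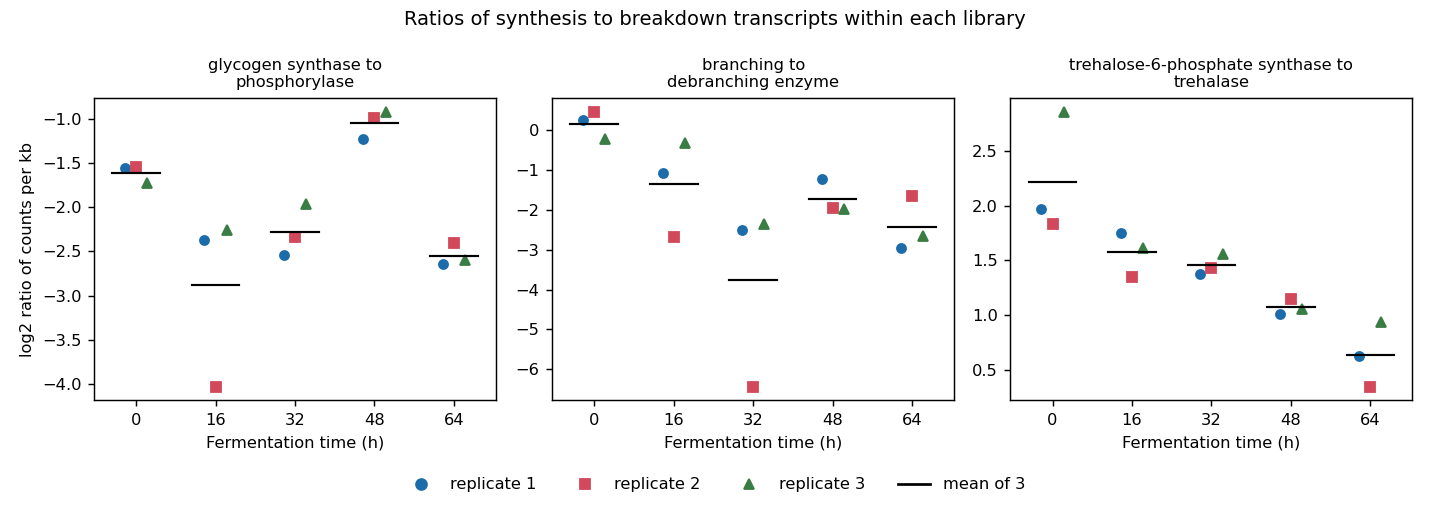
Log2 ratios of counts per kb within each library against fermentation time in h; symbols mark the replicate number and bars the mean of 3 libraries. Glycogen synthase to phosphorylase is highest at 48 h, between -1.23 and -0.92, and the ratio of TPS1 to trehalase has means of 2.22 at 0 h and 0.63 at 64 h.

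The phosphorylase transcript also moved against other genes of the set in these units. GPH1 per kb was 7.98 to 8.20 times GDB1 in the 0 h libraries and 8.86 to 13.1 times in those of 16 h. It was 0.932 to 1.16 times GDB1 at 32 h, 0.525 to 0.846 times at 48 h and 0.756 to 1.98 times at 64 h. Relative to TPS1 it was 3.32 to 5.08 times at 0 h, 5.55 to 9.85 times at 16 h, 0.780 to 1.17 times at 32 h, 0.521 to 0.859 times at 48 h and 1.19 to 6.06 times at 64 h. Both of these ratios were chosen after the values were seen and carry no test.

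As a measure of likeness, log2(CPM + 1) was centred over the 15 libraries and the mean absolute difference taken between genes. Outside the set, only genes with a symbol, KOG entry or description and a mean of at least 20 CPM were compared. Of these, the nearest to GPH1 were the glycolytic genes GPM1, phosphoglycerate mutase (0.38), and PGI1, glucose-6-phosphate isomerase (0.43). Next was WICANDRAFT_61966, of uncharacterized function (0.43). Nearest to TPS1 were ELP3, an Elongator subunit gene (0.26), UTP21, a WD repeat gene (0.30), and WICANDRAFT_33524, annotated as an NADH dehydrogenase (0.31). Within the set, the closest pair was WICANDRAFT_64361 and GDB1 (0.34) and the most distant ATH1 and GPH1 (2.08); TPS1 and TPS2 differed by 0.41, and the glycogen synthase gene and GPH1 by 0.60.

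Counts for the neighbouring lists stand beside the shares of all genes tested, of which 22.6% rose and 17.8% fell at 16 h against 0 h and 14.1% rose and 17.7% fell at 32 h against 16 h. Genes that supply the glucose units did not share one course. Of 6 genes for hexokinases, phosphoglucomutases and UGP1, 1 rose and 1 fell at 16 h against 0 h, and 0 rose and 3 fell at 32 h against 16 h (medians 1.10 and -1.43). UGP1, which makes UDP-glucose, fell at 16 h to 37.6, 16.3 and 55.4 CPM, against 129, 139 and 132 CPM at 0 h (log2 fold change -1.87, SE 0.52, adjusted p = 0.00975). Its direction was thus opposite to that of the trehalase genes at this step, and at 32 h against 16 h its log2 fold change of 0.38 did not pass (adjusted p = 0.595; 1.603 with library size scaling, adjusted p = 0.0204). Hexokinase gene WICANDRAFT_79472 had 24182, 18664 and 13267 CPM at 16 h, against 581, 496 and 765 CPM at 0 h (log2 fold change 4.93, adjusted p = 4.05e-05). It fell again at 32 h (-4.71, adjusted p = 0.000116), to 1054, 642 and 442 CPM.

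Further genes annotated with the words trehalose, trehalase or glycogen numbered 9, of which 0 rose and 1 fell at 16 h against 0 h and 1 rose and 1 fell at 32 h against 16 h (medians -0.35 and -0.51). The one that fell at 32 h, WICANDRAFT_96868 of the glycogenin family, the primer of glycogen chains, had 37.8, 42.2 and 48.6 CPM at 32 h, against 166, 125 and 138 CPM at 16 h (log2 fold change -1.74, SE 0.39, adjusted p = 0.00458; -0.51 with library size scaling, adjusted p = 0.299). A second glycogenin-family gene, WICANDRAFT_59684, named after its values were seen, did not pass at this step: it had 3.22, 6.10 and 23.9 CPM at 32 h, against 17.7, 2.65 and 17.2 CPM at 16 h (log2 fold change -0.17, adjusted p = 0.892), and these groups overlapped. TPS3, named after a regulatory subunit of the trehalose synthase complex of S. cerevisiae, did not pass in either step (-0.27 and -0.51, adjusted p = 0.525 and 0.236).

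Among 9 genes for protein phosphatase 1, Snf1, protein kinase A and Pho85, which are known to regulate glycogen or trehalose enzymes in S. cerevisiae, 1 rose and 0 fell at 16 h against 0 h, and 1 rose and 4 fell at 32 h against 16 h (medians -0.23 and -0.95). SNF1 had 23.2, 29.4 and 36.6 CPM at 32 h, against 62.1, 96.0 and 85.8 CPM at 16 h (log2 fold change -1.45, adjusted p = 0.00526; -0.30 with library size scaling, adjusted p = 0.596). PHO85 had 202, 205 and 155 CPM at 32 h, against 117, 114 and 99.3 CPM at 16 h (log2 fold change 0.77, adjusted p = 0.0411); this call ended when any one of 7 libraries was left out (replicates 1 and 2 of 0 h, 1 and 3 of 16 h, 1 and 2 of 32 h, and 1 of 64 h), with log2 fold changes of 0.70 to 0.81.

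Of 3 genes annotated as glucoamylase, an enzyme that releases glucose from glycogen-like chains, 2 rose and 0 fell at 16 h against 0 h and 0 passed at 32 h against 16 h (medians 2.48 and 0.08). Of 4 genes for 1,3-beta-glucan synthase, which uses UDP-glucose for the cell wall, 0 rose and 1 fell at 16 h against 0 h and 0 passed at 32 h against 16 h (medians -1.10 and 0.32).

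In a list of 6 small heat shock, Hsp104-family and catalase genes, 4 rose and 1 fell at 16 h against 0 h, and 1 rose and 0 fell at 32 h against 16 h (medians 2.30 and 0.42). HSP26, a small heat shock protein gene, rose at the step where the 8 genes fell: it had 23872, 24218 and 6238 CPM at 32 h, against 2071, 1142 and 1503 CPM at 16 h (log2 fold change 3.53, SE 1.05, adjusted p = 0.0201). That call ended without 16 h replicate 3 (3.49) or 32 h replicates 1 (3.31) or 2 (3.26), with adjusted p of 0.0667, 0.0516 and 0.0542. At 64 h HSP26 had 1578 and 2448 CPM in replicates 1 and 2 and 30404 CPM in replicate 3, the library in which GPH1 was lowest at that time.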

How the data were processed

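The deposited table holds raw whole-number counts per gene, not normalised by the authors; fastp, HISAT2 and HTSeq are named, without versions, per the submitters' processing notes, with a genome build not given in the sources used here. Per the labels' protocols, RNA was extracted with TRIzol and made into libraries with the VAHTS Universal V6 kit; strand handling is not stated, so overlapping genes are uncertain. All 6571 identifiers matched RefSeq locus tags (assembly Wican1), which gave symbols and lengths. The analysis used edgeR 4.0.16 in R 4.3.3: filterByExpr by time point (6327 genes kept), TMM, and a quasi-likelihood fit of all 15 libraries with a mean per time point (10 residual degrees of freedom). Contrasts were adjusted by Benjamini-Hochberg over all genes tested, with a threshold of 0.05; rose and fell mean past it. SE is approximate, the absolute log2 fold change over the root of its F. A floor of 3 counts corresponds to 0.0748 to 0.171 CPM per library, for counting error only. Samples were grouped by the time in their titles, and all were used. The pipeline was tested on simulated data. Alternatives were DESeq2 1.42.0, median-of-ratios factors, scaling by library size, tests without the low-count filter, the replicate number as a block, a fit without 16 h replicate 2 and 64 h replicate 3, and each library left out. All 8 genes are named. From the neighbouring lists 7 genes that passed the F test were taken after their values were seen, and 1 that did not (WICANDRAFT_59684). Of like pattern, the 3 nearest genes with at least 20 CPM and a symbol, KOG entry or description are named for GPH1 and TPS1. The members and lists were chosen with earlier results of these data known.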

Additional observations from a re-analysis of the deposited data

How the results depend on the processing

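Median-of-ratios factors and no low-count filter changed no call among the 48 log2 fold changes of the 8 genes (6 comparisons each) or the 14 of the 7 named neighbours. With library size scaling, 5 of the 8 genes passed over the 5 time points (76% of all genes tested), 1 rose at 16 h against 0 h, 2 fell at 32 h against 16 h and 3 fell at 64 h against 16 h, in place of 8, 2, 8 and 6. The calls lost in all 6 comparisons were 9 with the same sign and 2 with the opposite one: the log2 fold changes of ATH1 and GDB1 at 32 h against 16 h became 0.30 and 0.17, with no call. DESeq2 gained 6 calls and lost none: 6 genes rose at 16 h against 0 h (24.7% of all genes tested) and 1, GPH1, at 64 h against 48 h (9.31%), and GLC3 fell at 64 h against 0 h (-2.03). Without 16 h replicate 2 and 64 h replicate 3, 5 genes rose at 16 h against 0 h, and 2 rose and 1 fell at 64 h against 48 h. The cause of these moves was not tested. Leaving out 1 library at a time gave 2 to 5 risen genes at 16 h against 0 h. It gave 5 to 8 fallen genes at 32 h against 16 h. At 64 h against 48 h it gave 0 to 1 risen and 0 to 1 fallen. These fits have fewer samples, and shares of all genes tested are not given for them. Replicate numbers gave no clear sign of pairing. Of 30 same-numbered pairs, 7 had a correlation of deviations above 0.1, with a range of -0.66 to 0.56. The median was -0.09, beside 0.05 for differently numbered pairs, and 2 of 15 libraries correlated best with their own number. With 3 libraries per time point this check cannot exclude pairing. With the replicate block, GDB1 at 32 h against 16 h (-1.04, adjusted p = 0.0701) and TPS2 at 64 h against 0 h (-0.95, adjusted p = 0.0659) were no longer called, nor was PHO85 at 32 h against 16 h (0.77, adjusted p = 0.0732).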
